A study of Mus musculus with 6 samples.

Results

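Interferons reach a T cell through 2 cell-surface receptors, and the genes of both receptors were followed here together with Irf1, Irf2 and Irf3 in CD4+ T cells sorted by CD25. The 7 genes were taken by name from the deposited table of 15445 genes: the 4 receptor chains Ifnar1, Ifnar2, Ifngr1 and Ifngr2, and the 3 transcription factors. All 7 had a row, and 6 passed the filter on low counts that left 12987 genes for testing, Ifngr2 being the exception. The libraries come from spleen cells of C57BL/6 mice taken on day 5 of an infection with LCMV, the lymphocytic choriomeningitis virus. The cells are monoclonal transgenic T cells, that is, of a single antigen specificity, and were sorted on CD4, Thy1.1 and CD25 (Il2ra, the high-affinity subunit for interleukin-2) into 3 CD25-high and 3 CD25-low libraries numbered 1 to 3 in each group. All 6 libraries share the infection, the transgenic cells and the library kit, and no uninfected group was used here. The name of the transgene, the age and sex of the mice and the number of animals behind a library are details not given in the sources used here. A p-value sets the difference between the groups against the spread among these libraries. That spread may be technical, so a p-value may not speak for differences between animals.

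Type I interferons bind a receptor made of the Ifnar1 and Ifnar2 chains, and interferon-gamma, the type II interferon, binds a receptor made of Ifngr1, which holds the ligand, and Ifngr2, which completes the signalling complex. Janus kinases attached to these chains phosphorylate STAT proteins: type I receptors mainly yield a complex that holds Stat2 and Irf9 and binds the interferon-stimulated response element (ISRE), and signals of the type II receptor act through the gamma-activated site (GAS). Irf1 is an early target of interferon signals and activates antiviral, antigen-presentation and Th1 genes, Irf2 binds the same DNA elements and mostly opposes it, and Irf3 is held inactive in the cytosol until sensors of viral nucleic acid trigger its phosphorylation. STAT5, which the interleukin-2 receptor activates, also binds GAS-type sequences. In CD4+ T cells of the Th1 type, a shutdown of Ifngr2 is known to make the cells unresponsive to the interferon-gamma that they release.

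Total counts ranged from 16787233 to 23567066 per library. Il2ra, which encodes CD25 and checks the sort, had 432 to 1540 CPM (counts scaled by TMM-adjusted library size) in CD25-high libraries and 20.7 to 35.7 CPM in CD25-low libraries. All 7 markers of CD4+ T cells were present, with summed levels of 2350 to 2530 CPM in the CD25-high group and 2340 to 3210 CPM in the CD25-low group. Of 5 B cell markers, Cd79b alone had a row, with at most 1.41 CPM in the CD25-high group and 1.11 CPM in the CD25-low group. The CD8 T cell marker Cd8b1 had 5.33, 3.51 and 4.63 CPM in the CD25-high libraries, against 1.59, 2.26 and 2.32 CPM in the CD25-low libraries, without overlap. Groups without overlap, in either direction, were seen in 16.9% of all tested genes. Cd8a, the other marker on the CD8 list, had no row. Zbtb46, on the dendritic cell list, reached 12.2 CPM in the CD25-high group and 14.7 CPM in the CD25-low group. Of the rest of that list, Itgax had at most 1.38 CPM in the CD25-high group and 0.681 CPM in the CD25-low group. Flt3, Siglech and Clec9a had no row. The part of other cells was not tested. The libraries numbered 1 stand apart from the others of their group for several of the genes below, so the difference between same-numbered libraries is given as well. The counts of same-numbered libraries deviated together from their group means, with correlations of 0.34, 0.19 and 0.16. The evidence for numbers 2 and 3 is weak, since CD25-high library 2 with CD25-low library 3 reached 0.13, and no label states a pairing. A fit with the library number as a block is given beside the fit with the group only. A pair is the CD25-high and the CD25-low library of 1 number. Values per library run in the order of library numbers 1, 2 and 3.

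Ifnar2, the chain that binds type I interferon with the higher affinity and carries the docking sites for Stat2, was lower in CD25-high cells. It was the only gene of the 7 called at an edgeR adjusted p of 0.05, where 0.655% of all tested genes were called in either direction, 0.501% were called lower and 0.154% were called higher. Ifnar2 had 53.8, 34.3 and 33.8 CPM in the CD25-high libraries, against 105, 134 and 105 CPM in the CD25-low libraries. Each CD25-high library was below each CD25-low library, and CD25-high library 1 was the highest of its group. The means were 40.6 ± 11.4 CPM in CD25-high cells, against 115 ± 16.8 CPM in CD25-low cells (n = 3 each, SD), 2.82-fold lower in CD25-high cells. The log2 fold change, CD25-high over CD25-low here and throughout, was -1.50 ± 0.25 (SE), with a 95% interval from -2.04 to -0.95 and an edgeR adjusted p of 0.0257. It ranked 51 by p among the tested genes. Within library numbers 1, 2 and 3 the log2 difference was -0.97, -1.96 and -1.63, and with the block the adjusted p was 0.000856. The call with the block was kept without pair 1, 2 or 3 (0.00157, 0.000241 and 0.000219). In fits without the block the call was lost without CD25-high library 2 (adjusted p 0.125) or 3 (0.196), or without CD25-low library 1 (0.0549), 2 (0.148) or 3 (0.0914), with log2 fold changes from -1.56 to -1.37. Without CD25-high library 1 the adjusted p was 0.00742. In bulk libraries, fewer cells with a transcript and less transcript per cell cannot be told apart, and mouse Ifnar2 yields both a transmembrane and a soluble form, which counts per gene do not separate.

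Ifnar1, the partner chain, which is attached to the kinase Tyk2, had 22.2, 35.5 and 24 CPM in the CD25-high libraries, against 36.5, 52.5 and 40.8 CPM in the CD25-low libraries. These groups did not overlap either, and library 2 was the highest in each. The log2 fold change was -0.67 ± 0.26, with a 95% interval from -1.26 to -0.08, but the edgeR adjusted p over all genes was 0.381, and 0.0834 with the block, so Ifnar1 was not called. The within-number differences were -0.72, -0.56 and -0.76. Ifnar1 and Ifnar2 were the members in which CD25-high libraries all lay below CD25-low libraries, a pattern that 9.54% of all tested genes showed. In either direction 16.9% of all tested genes had groups without overlap.

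The sequences before the start sites are shown for the called gene, its partner chain and the antagonists Irf1 and Irf2, because interferon signals act on their target genes through GAS and ISRE sequences. Whether these genes are such targets in these cells was not tested. They are the 250 bases before the RefSeq start (GRCm38.p6), 5′ to 3′, and all 7 genes had an entry. Capitals mark matches to the GAS letters TTCNNNGAA or to the ISRE core (GAAA, any 2 bases, GAAA), searched on both strands.
Ifnar2 chr16:91372533-91372782 (plus strand): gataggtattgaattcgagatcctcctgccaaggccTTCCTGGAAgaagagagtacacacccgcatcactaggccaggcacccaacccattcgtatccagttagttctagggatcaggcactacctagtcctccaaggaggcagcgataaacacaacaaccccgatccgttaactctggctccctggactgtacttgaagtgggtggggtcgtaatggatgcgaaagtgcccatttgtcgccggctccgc
Ifnar1 chr16:91484965-91485214 (plus strand): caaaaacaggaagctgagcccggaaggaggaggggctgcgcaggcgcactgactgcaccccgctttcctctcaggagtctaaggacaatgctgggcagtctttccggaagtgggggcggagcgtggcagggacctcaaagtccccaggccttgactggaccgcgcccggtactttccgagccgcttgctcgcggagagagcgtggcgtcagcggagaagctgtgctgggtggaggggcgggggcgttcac
Irf1 chr11:53769764-53770013 (plus strand): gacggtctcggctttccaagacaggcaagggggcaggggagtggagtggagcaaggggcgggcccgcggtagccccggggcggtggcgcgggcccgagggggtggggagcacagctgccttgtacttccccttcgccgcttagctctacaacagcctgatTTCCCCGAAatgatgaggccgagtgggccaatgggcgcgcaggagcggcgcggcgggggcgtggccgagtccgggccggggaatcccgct
Irf2 chr8:46739495-46739744 (plus strand): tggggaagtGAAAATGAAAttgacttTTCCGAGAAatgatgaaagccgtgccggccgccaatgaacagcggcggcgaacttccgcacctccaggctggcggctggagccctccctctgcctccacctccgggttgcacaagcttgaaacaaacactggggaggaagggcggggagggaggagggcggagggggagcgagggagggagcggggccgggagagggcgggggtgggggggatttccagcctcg

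The Ifnar2 window held the GAS letters once, TTCCTGGAA, 214 to 206 bases before the start. The first of 2 Irf1 start sites had TTCCCCGAA 90 to 82 bases before it. Irf2 had TTCCGAGAA 224 to 216 bases and the ISRE core GAAAATGAAA 241 to 232 bases before its start, without overlap of these. Neither set of letters occurred in the windows of Ifnar1, Ifngr1, Ifngr2 and Irf3, nor at the second start of Irf1. Of 32851 windows of the same length, 7.02% held the GAS letters and 2.98% the ISRE core. The GC box GGGCGG, found in 32.7% of all windows, occurred in those of 6 of the 7 genes, Ifnar2 being the exception. Ifnar2, which was called, and Irf1 and Irf2, which were not, all held the GAS letters. Binding was not measured, and a match is a description of the sequence.

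**Figure D1:**
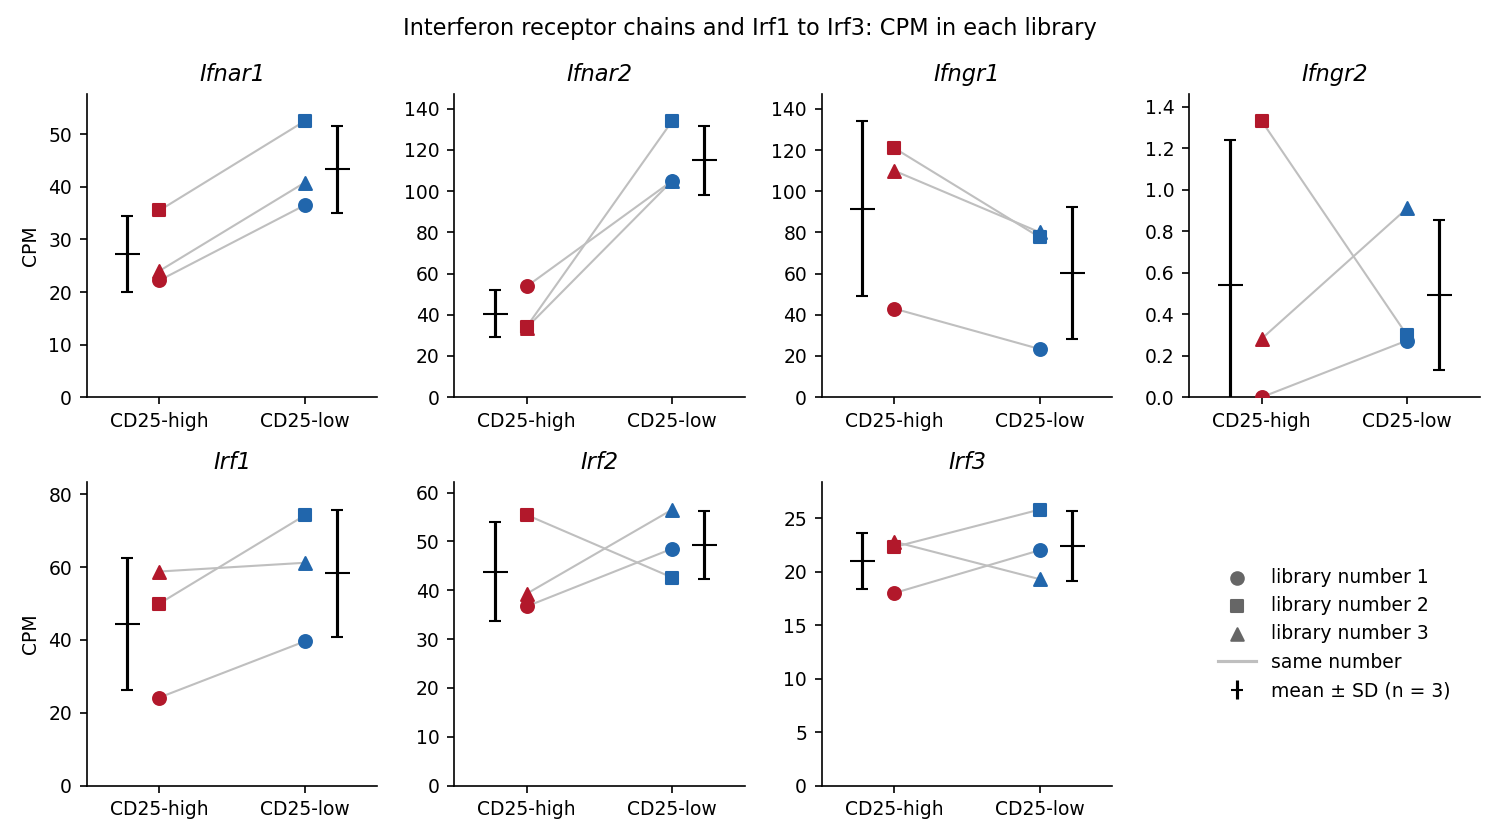
CPM of the 7 genes in each library, CD25-high (red, left) and CD25-low (blue, right), with linear axes from 0. Symbols mark the library number, grey lines join the same number, and black bars give the mean and SD of 3 libraries (cut at 0 for Ifngr2). Ifnar2 lies at 33.8 to 53.8 CPM in CD25-high libraries and 105 to 134 CPM in CD25-low libraries, while Ifngr1 and Irf1 are lowest in the libraries numbered 1.

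The ratio of Ifnar1 to Ifnar2 counts within a library does not depend on how libraries are scaled. It was 0.412, 1.04 and 0.71 in the CD25-high libraries, and 0.347, 0.392 and 0.389 in the CD25-low libraries. The ratio was higher in each CD25-high library than in any CD25-low library, although CD25-high library 1 came close to them. The log2 ratio averaged -0.57 ± 0.67 in CD25-high and -1.41 ± 0.10 in CD25-low libraries (n = 3 each, SD), a difference of 0.84. The exact two-sided permutation test gave p = 0.1, the smallest that 3 against 3 libraries allow, and 0.3 after Benjamini-Hochberg adjustment over the 3 ratios computed.

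Both type I chains lie in a cluster of class II cytokine receptor genes on chromosome 16 (GRCm38, the assembly also called mm10). On the plus strand follow Ifnar2 (ENSMUSG00000022971, 91372783 to 91405589), Il10rb (91406164 to 91425834), Ifnar1 (ENSMUSG00000022967, 91485238 to 91507441) and Ifngr2 (ENSMUSG00000022965, 91547072 to 91565623), in 192841 bases. Il10rb encodes a chain shared by the receptors for interleukin-10, interleukin-22 and type III interferon. It had 3.63, 10.6 and 6.43 CPM in the CD25-high libraries, against 17.9, 16.8 and 12 CPM in the CD25-low libraries, with no overlap. Its log2 fold change was -1.18 ± 0.41, with an edgeR adjusted p of 0.318 and 0.0793 with the block, so it was not called. Ifnlr1, which completes the type III receptor, had no row among those analysed here.

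Gm21970, annotated as a gene that runs from Ifnar2 into Il10rb on the same strand, shares 315 exonic bases with Ifnar2, and its count was 20.3% to 34.6% of the Ifnar2 count in CD25-high and 24.2% to 28.4% in CD25-low libraries. How reads were split between them is not given in the sources used here, so their counts are uncertain to that extent. Gm21970 had a log2 fold change of -1.40 ± 0.33, with an edgeR adjusted p of 0.117, and 0.0135 with the block, a call lost without pair 3 (0.0611). DESeq2 gave it an adjusted p of 0.00548. It and the flanking genes were chosen after the values of the receptor genes were seen. Between the starts of Ifnar2 and Ifngr2, 5 genes were tested. Of them 4 (Ifnar2, Gm21970, Il10rb and Ifnar1) were lower in CD25-high cells without overlap, which 9.54% of all tested genes were. These 4 are not separate observations, since Gm21970 overlaps the spans of Ifnar2 and Il10rb and may share reads with both. The region was also chosen on the values of its receptor genes, so the count is a description. The remaining gene, A930006K02Rik, a transcript of low level, had overlapping groups (log2 fold change -1.51 ± 0.74, adjusted p 0.498). Within 500000 bases on either side, 15 further genes were tested, and 0 had groups without overlap or an edgeR adjusted p under 0.05 (range 0.354 to 0.988), where 16.9% of all tested genes had no overlap in either direction. Their log2 fold changes ran from -0.60 to 1.41, with a median of -0.03, and 8 of the 15 were below 0. At an unadjusted p under 0.05, 1 flanking gene passed, Itsn1 (log2 fold change 1.41 ± 0.53), and with the block 1 passed at an adjusted p under 0.05, Gart (0.72 ± 0.37 without the block, adjusted p 0.04 with it). The difference between cluster and flanks was not tested.

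**Figure D2:**
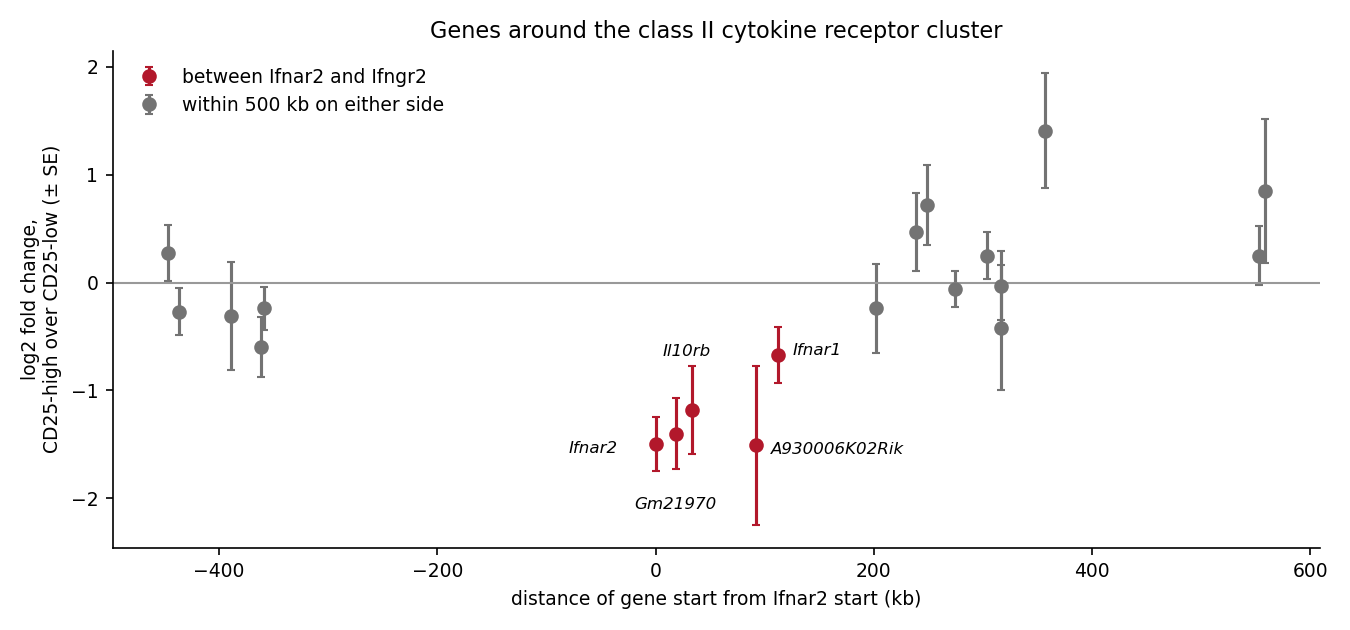
Log2 fold changes (± SE) of the 20 tested genes around the receptor cluster, by the distance of the gene start from the start of Ifnar2. Red points are the 5 genes between Ifnar2 and Ifngr2, from -1.51 to -0.67, and grey points are the 15 flanking genes, from -0.60 to 1.41.

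Neither chain of the interferon-gamma receptor was called. Ifngr1, the ligand-binding chain (ENSMUSG00000020009, plus strand of chromosome 10, 19591949 to 19610229) had 43.0, 121 and 110 CPM in the CD25-high libraries, against 23.4, 77.7 and 80.1 CPM in the CD25-low libraries. The groups overlapped, since CD25-high library 1 lay below CD25-low libraries 2 and 3, but each CD25-high library was above the CD25-low library of the same number, by 0.88, 0.64 and 0.46 on the log2 scale. The log2 difference between library 1 and the mean of the others was -1.43 in CD25-high and -1.75 in CD25-low cells, a larger gap than that between the groups. The log2 fold change was 0.60 ± 0.47, with a 95% interval from -0.45 to 1.64 and an edgeR adjusted p of 0.698. With the block it was 0.66 ± 0.18, with an adjusted p of 0.0509, so Ifngr1 was called in neither fit.

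Macrophages and monocytes carry much Ifngr1. The cells were sorted on CD4 and Thy1.1, and the purity after the sort was not measured here. Of the 6 markers fixed for them, 4 had a row. Their summed level was 26.8 to 87.6 CPM in the CD25-high group and 12.9 to 42.3 CPM in the CD25-low group. Most of it was Itgam, an integrin chain that activated T cells can also make, with 21.1, 77.2 and 71.6 CPM in the CD25-high libraries, against 5.03, 26.3 and 32.1 CPM in the CD25-low libraries. Itgam was thus low in the libraries numbered 1, as Ifngr1 was. Csf1r, the receptor for macrophage colony-stimulating factor, was highest in those libraries instead, with 2.89, 2.34 and 1.52 CPM in the CD25-high libraries, against 2.08, 0.639 and 1.57 CPM in the CD25-low libraries. Cd68, a lysosomal protein gene, had 2.83 to 7.72 CPM in the CD25-high group and 5.2 to 8.56 CPM in the CD25-low group. Of the remaining markers on the list, Adgre1 and Cd14 had no row, and Lyz2 had at most 0.338 CPM in the CD25-high group and 0.724 CPM in the CD25-low group. Thy1, a T cell gene, was also lowest in the libraries numbered 1, with 97.8, 270 and 274 CPM in the CD25-high libraries, against 54, 206 and 207 CPM in the CD25-low libraries. Of the other CD4+ T cell markers, Cd3g was lowest there in both groups too, while Cd4, Cd3e, Cd3d, Cd2 and Cd5 were not. Cd3e had 1310, 1280 and 1200 CPM in the CD25-high libraries, against 1310, 1180 and 1680 CPM in the CD25-low libraries. The part of other cells or of library quality in the Ifngr1 level was not tested.

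Ifngr2 was close to the limit of detection. Its counts were 0, 25 and 5 in the CD25-high libraries, and 5, 7 and 22 in the CD25-low libraries, which sums to 30 in CD25-high and 34 in CD25-low libraries. Ifngr1 had 4994 counts in CD25-high and 4189 in CD25-low libraries. A count of 0 allows up to 3 counts, or 0.17 CPM, in CD25-high library 1, and this limit covers counting error only. The group means were 0.538 ± 0.701 CPM in CD25-high cells, against 0.494 ± 0.361 CPM in CD25-low cells (n = 3 each, SD). Ifngr2 did not pass the low-count filter, and its counts were few and uneven between libraries, so no difference between the groups could be shown. Without the filter its log2 fold change was 0.12 ± 1.38 (edgeR adjusted p 0.986). The log2 ratio of Ifngr1 to Ifngr2 counts differed by 1.63 between the groups (exact two-sided permutation p = 0.2, adjusted p 0.3). In CD25-high library 1 the Ifngr2 count is 0 and the 0.5 added to each count sets the ratio, which is therefore not a measured one there. The difference was 0.60 when that library was left out and 2.64 when CD25-high library 2 was. In the same libraries its neighbour Ifnar1 had at least 22.2 CPM and its partner Ifngr1 at least 23.4 CPM.

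Irf1 (ENSMUSG00000018899, plus strand of chromosome 11, 53770014 to 53778374) had 24.2, 50 and 58.8 CPM in the CD25-high libraries, against 39.6, 74.2 and 61.2 CPM in the CD25-low libraries. The groups overlapped, and the libraries numbered 1 were the lowest of each group, with a log2 difference from the others of -1.16 in CD25-high and -0.77 in CD25-low cells. The log2 fold change was -0.40 ± 0.34, with a 95% interval from -1.16 to 0.37 and an edgeR adjusted p of 0.737, and 0.262 with the block. Without CD25-high library 1 it was -0.10 ± 0.28 (adjusted p 0.96). Irf1 shares 135 exonic bases with Gm17334 on the opposite strand, which had 205 counts in all libraries together.

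Irf2 (ENSMUSG00000031627, plus strand of chromosome 8, 46739732 to 46847458) had 36.7, 55.4 and 39.3 CPM in the CD25-high libraries, against 48.5, 42.6 and 56.5 CPM in the CD25-low libraries. Number 2 was the highest library of the CD25-high group and the lowest of the CD25-low group, so the within-number differences, -0.40, 0.38 and -0.52, did not share a sign. The log2 fold change was -0.17 ± 0.24, with a 95% interval from -0.70 to 0.36 and an edgeR adjusted p of 0.855. The count ratio of Irf1 to its antagonist Irf2 was 0.66, 0.904 and 1.5 in the CD25-high libraries, and 0.817, 1.74 and 1.08 in the CD25-low libraries, so the groups overlapped. The log2 ratio differed by -0.26 between the groups (exact two-sided permutation p = 0.6, adjusted p 0.6).

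Irf3 (ENSMUSG00000003184, plus strand of chromosome 7, 44997648 to 45002848) had 18.0, 22.3 and 22.8 CPM in the CD25-high libraries, against 22, 25.8 and 19.3 CPM in the CD25-low libraries. Its log2 fold change was -0.09 ± 0.25, with an edgeR adjusted p of 0.935. The 95% interval ran from -0.65 to 0.47, so smaller changes in either direction cannot be told from none with these libraries. Irf3 shares 88 exonic bases with Bcl2l12 on the opposite strand, which had 585 counts in all libraries together. Irf3 is controlled largely by phosphorylation, which counts of RNA do not measure.

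**Figure D3:**
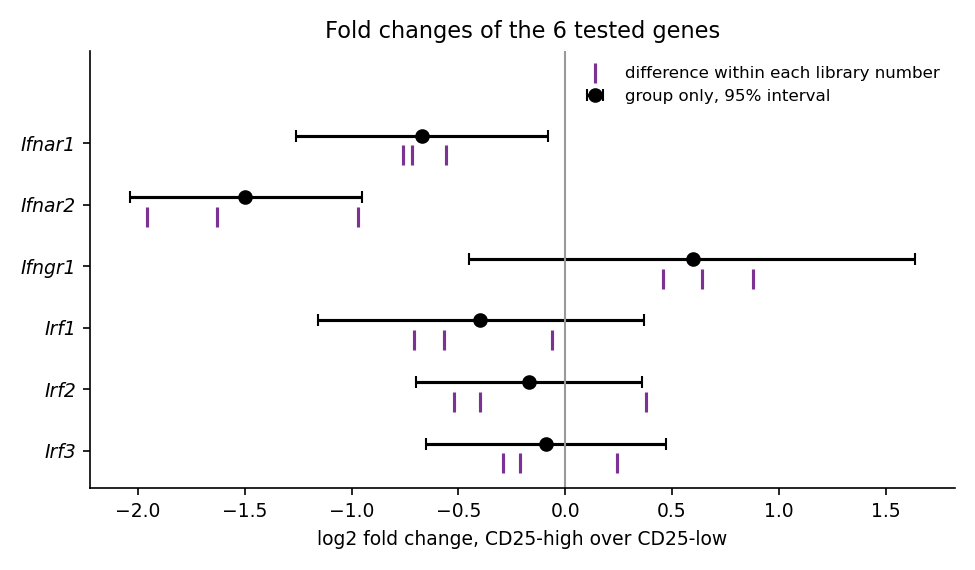
Log2 fold changes, CD25-high over CD25-low, of the 6 tested genes with 95% intervals from the fit with the group only (black), and the log2 difference within each library number (purple ticks). The interval lies below 0 for Ifnar2 (-2.04 to -0.95) and Ifnar1 (-1.26 to -0.08), and the ticks of Ifngr1 all lie above 0, at 0.46 to 0.88.

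Levels of different genes were compared as CPM per kilobase of merged exons. In CD25-high cells the order was Ifngr1 (32.2 ± 14.9), Ifnar2 (12.2 ± 3.42), Irf1 (11.2 ± 4.53), Irf3 (6.10 ± 0.764), Irf2 (5.92 ± 1.37), Ifnar1 (4.58 ± 1.22) and Ifngr2 (0.143 ± 0.186 CPM per kilobase, SD, n = 3). In CD25-low cells it was Ifnar2 (34.5 ± 5.05), Ifngr1 (21.2 ± 11.3), Irf1 (14.7 ± 4.39), Ifnar1 (7.29 ± 1.40), Irf2 (6.65 ± 0.942), Irf3 (6.51 ± 0.946) and Ifngr2 (0.131 ± 0.0957 CPM per kilobase, SD, n = 3). The ranges of mean ± SD overlapped between all neighbours from Ifnar2 to Ifnar1 in CD25-high cells. In CD25-low cells they overlapped between neighbours from Ifnar2 to Irf1 and from Ifnar1 to Irf3, and those of Irf1 and Ifnar1 did not. Ifngr2 lay apart from its neighbour in each group, and Ifngr1 lay apart from Ifnar2 in CD25-high cells. Ifnar2 exceeded Ifngr1 in all 3 CD25-low libraries and in CD25-high library 1 (16.2 against 15.1 CPM per kilobase), whereas Ifngr1 exceeded Ifnar2 in CD25-high libraries 2 and 3 (42.7 against 10.3, and 38.7 against 10.2).

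Among the proteins that carry the signal from these receptors, Stat2 fell in CD25-high cells and the other 5 tested JAK-STAT transducers did not pass. Of all tested genes 0.501% were called lower in this fit. Stat2, which docks on Ifnar2, had 28.5, 24.3 and 21.7 CPM in the CD25-high libraries, against 70.5, 61.7 and 54.3 CPM in the CD25-low libraries, with no overlap (log2 fold change -1.32 ± 0.22, edgeR adjusted p 0.0273). As for Ifnar2, removing CD25-high library 2, CD25-high library 3 or any 1 of the CD25-low libraries ended the call (adjusted p up to 0.216). Jak1, the kinase shared by both receptors, had 269 ± 29.0 CPM in CD25-high cells, against 437 ± 87.0 CPM in CD25-low cells (n = 3 each, SD), and a log2 fold change of -0.70 ± 0.21 (edgeR adjusted p 0.217, but 0.0225 in the block fit and 0.158 in that fit without pair 3). For Tyk2, the kinase of Ifnar1, the log2 fold change was -0.12 ± 0.32 (0.929), and its sign turned when CD25-high library 1 (0.04) or, separately, CD25-low library 3 (0.08) was left out. All 6 log2 fold changes were below 0 in the fit over all libraries, with a median of -0.51, beside a median of 0.01 over all tested genes, of which 49.2% were below 0.

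Of 9 feedback and inhibitory proteins 0 passed in edgeR, and 2 fell with the block, where 4.63% of all tested genes were called, 2.9% lower and 1.73% higher. Their median log2 fold change was -0.67, and 8 were below 0. The smallest p-values were those of the phosphatase gene Ptpn11 (130 ± 13.8 CPM in CD25-high cells, against 205 ± 20.4 CPM in CD25-low cells, -0.65 ± 0.19, adjusted p 0.207, but 0.0324 in the block fit, and 0.0931 and 0.181 in that fit without pair 1 and pair 2) and of Socs1, which blocks Janus kinases (1.11 ± 0.231 CPM in CD25-high cells, against 3.57 ± 1 CPM in CD25-low cells, -1.68 ± 0.56, 0.297, and 0.163 with the block). The other gene that fell with the block, named after its values were seen, was Usp18, which removes the ubiquitin-like modifier Isg15 (-0.75 ± 0.52, adjusted p 0.649, and 0.0346 with the block). Of 6 other IRF genes 0 passed without the block. Irf7, which amplifies type I interferon responses, had 9.27 ± 1.41 CPM in CD25-high cells, against 20.4 ± 4.91 CPM in CD25-low cells (-1.14 ± 0.30, adjusted p 0.162, and 0.0446 with the block). DESeq2 gave Irf7 an adjusted p of 0.0243, and the call with the block was lost when any pair was left out (0.0812 to 0.133). Irf4, which antigen receptor signals induce, had 276 ± 123 CPM in CD25-high cells, against 149 ± 29.3 CPM in CD25-low cells (0.89 ± 0.30, adjusted p 0.301, and 0.0176 with the block). CD25-high library 1 stood apart for Irf4, with 418 CPM against 199 and 210 CPM in the others of its group, and the log2 fold change was 0.46 when it was left out. The call with the block was lost without pair 1 (0.0943). The IRF2-binding co-repressor gene Irf2bp2 had 60.5 ± 2.09 CPM in CD25-high cells, against 111 ± 34.7 CPM in CD25-low cells (-0.87 ± 0.25, adjusted p 0.206, and 0.0353 with the block, but 0.0822 and 0.236 in that fit without pair 2 and pair 3), while Irf2bp1, of the same family, had 0.79 ± 0.51 (0.619).

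Upstream of Irf3, 0 of 13 tested sensors, adaptors and kinases passed, with a median log2 fold change of -0.19 over the list and 9 below 0. With the block 2 fell, where 2.9% of all tested genes were called lower. The 2 were Ddx58, the RNA sensor RIG-I (44.9 ± 13.5 CPM in CD25-high cells, against 104 ± 23.5 CPM in CD25-low cells, -1.21 ± 0.28, adjusted p 0.113, and 0.00134 with the block, a call kept when any pair was left out), which interferon itself induces, and Ikbke, a kinase of Irf3 (21.1 ± 6.52 CPM in CD25-high cells, against 42.3 ± 8.69 CPM in CD25-low cells, -1.01 ± 0.29, adjusted p 0.209, and 0.0277 with the block, but 0.0587 and 0.192 in that fit without pair 2 and pair 3). DESeq2 gave Ddx58 an adjusted p of 0.00694. Downstream of Irf1 and interferon-gamma, 0 of 24 tested genes passed, with a median of -0.35 and 21 below 0. With the block 4 fell, where 2.9% of all tested genes were called lower, and 3, 2 and 2 fell in that fit without pair 1, 2 and 3. Besides Gbp2 these were Irgm1, Casp4 and Iigp1 (adjusted p with the block 0.0448, 0.0335 and 0.00111), named after their values were seen. The groups of Irgm1, Casp4 and Iigp1 overlapped. Gbp2, a guanylate-binding protein gene, had 26.7 ± 6.11 CPM in CD25-high cells, against 47.4 ± 14.9 CPM in CD25-low cells (-0.83 ± 0.29, 0.318, and 0.0395 with the block, a call lost when any pair was left out), while Gbp3, of the same family, had 116 ± 13.0 CPM in CD25-high cells, against 76.2 ± 11.8 CPM in CD25-low cells (0.60 ± 0.21, 0.309, and 0.0513 with the block).

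Of 40 tested type I interferon-stimulated genes, 2 fell, Stat2 and Ifi27l2a, and 38 did not pass, where 0.501% of all tested genes were called lower. Their median log2 fold change was -0.84, 39 were below 0, and 18 had CD25-high libraries all below CD25-low libraries, where 9.54% of all tested genes did. With the block 22 of the 40 fell, where 2.9% of all tested genes were called lower. Several genes stand on more than 1 of these lists. The libraries numbered 1 were the highest of both groups for 32 of the 40 genes, as for 19.2% of all tested genes. For example, chosen after their values were seen, Oasl2, of the oligoadenylate synthetase family, had 58.2, 8.84 and 10.1 CPM in the CD25-high libraries, against 294, 50.1 and 38.5 CPM in the CD25-low libraries. Ifi44, an interferon-induced gene, had 138, 17.6 and 11.6 CPM in the CD25-high libraries, against 210, 27.8 and 13.1 CPM in the CD25-low libraries, so its groups overlapped. In a fit chosen after seeing the data, without both libraries numbered 1 and without the block, 15 of the 40 fell, where 2.04% of all tested genes were called lower, with a median of -0.92 and 37 below 0. In libraries 2 and 3 alone, 35 of the 40 were lower in CD25-high cells without overlap, as 24% of all tested genes were. The part of the library in these levels was not tested. Ifi27l2a, an interferon-inducible gene, had 34.1, 34.7 and 26.3 CPM in the CD25-high libraries, against 99.7, 61.9 and 75.9 CPM in the CD25-low libraries, without overlap. In fits without the block, Ifi27l2a (log2 fold change -1.32 ± 0.24, edgeR adjusted p 0.0435) lost its call whichever library was left out (adjusted p up to 0.284). The call was also lost with RLE factors (0.0503) or without the low-count filter (0.0534). With the block Ifi27l2a was called (adjusted p 0.00232), also in that fit without pair 1, 2 or 3 (0.0258, 2.08e-05 and 0.00564). DESeq2 called it as well (adjusted p 0.000297). Of the ligand genes, Ifng was the only one tested, with 97.9, 24.2 and 43.1 CPM in the CD25-high libraries, against 16.6, 22.3 and 20.7 CPM in the CD25-low libraries (1.47 ± 0.43, edgeR adjusted p 0.217, and 0.0731 with the block). The log2 fold change was 0.76 when CD25-high library 1 was left out, and 0.59 in the block fit without pair 1. DESeq2 called Ifng (adjusted p 0.028), as did the block fit without pair 2 (6.41e-06) or pair 3 (0.0262). Its groups did not overlap. CD25-high library 1, the lowest of its group in Ifngr1, was the highest in Ifng. CD25-low library 1, also the lowest of its group in Ifngr1 (23.4 CPM), was instead the lowest in Ifng (16.6 CPM).

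**Figure D4:**
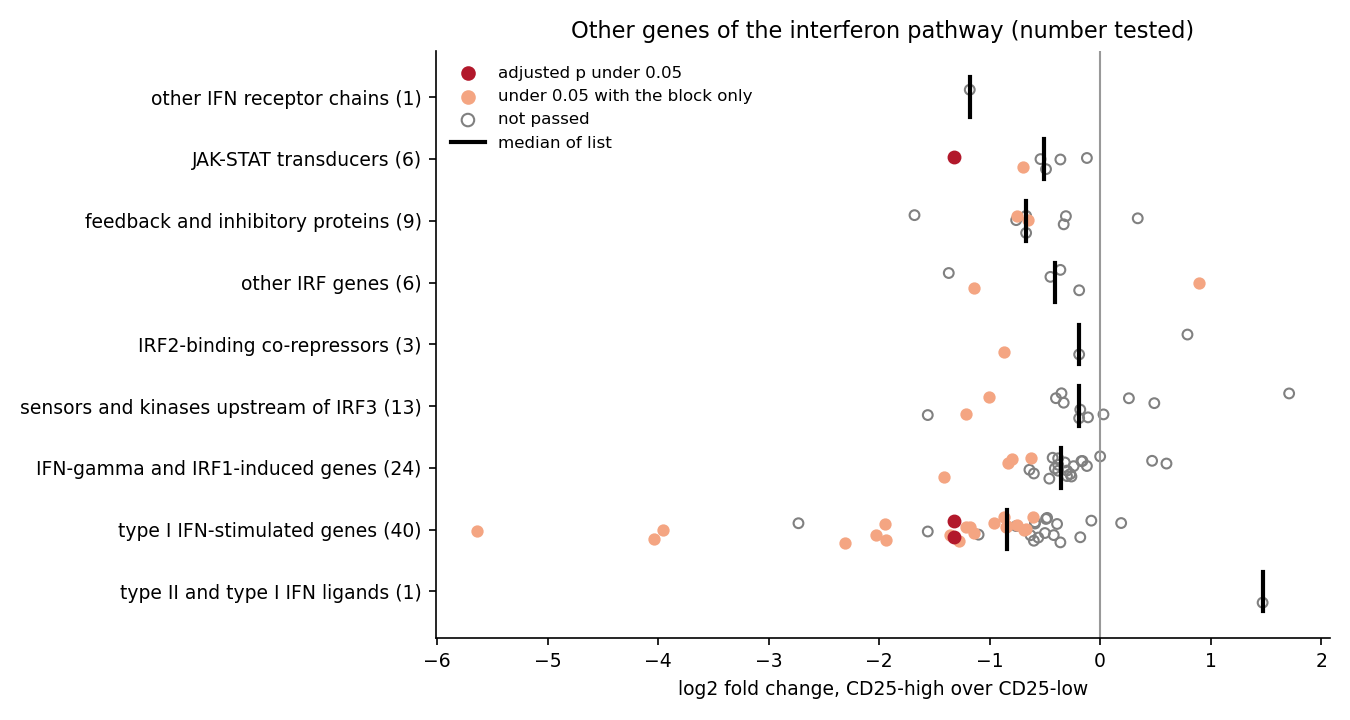
Log2 fold changes, CD25-high over CD25-low, of the tested genes on 9 lists of the interferon pathway, with the number tested in brackets and the list median as a black bar. Red points had an edgeR adjusted p under 0.05 (Stat2, on both lists that hold it, and Ifi27l2a), orange points passed with the block only, and open points did not pass.

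The genes whose log2 CPM over the 6 libraries ran closest to each member were sought among 8038 tested protein-coding genes with a mean of at least 5 CPM. The 6 points share libraries and groups, so the coefficients are a description. Ifnar2 ran closest to Degs2 and Evl (Pearson r 0.997 and 0.996), an overlapping gene pair each with a log2 fold change of -4.30, so the shape was shared but not the size. Ifnar1 ran closest to Tmem106b and Slc26a10 (0.996 and 0.995). Ifngr1 ran closest to the cell cycle factor E2f2 and to Id2, an inhibitor of E proteins (0.998 and 0.996), which were likewise lowest in the libraries numbered 1. Irf1 ran closest to Acp5 and Gimap1 (0.996 and 0.996), Irf2 to Acp2 and Lrch3 (0.98 and 0.976), and Irf3 to Vps11 and Coq9 (0.993 and 0.993).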

How the data were processed

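The deposited table gives raw counts, whole and not normalized, for each Ensembl gene in each library. Libraries were made from total RNA with a NuGEN Ovation kit, per the labels' protocols. The submitters' processing notes name Novoalign, DESeq2, mm10 and hg19 without a role or version. The counter, its annotation, its use of strand and how it treated multiply mapped reads were not given in the sources used here. Rows have a total of at least 10. GENCODE mouse release M21 gave symbols for 15169 identifiers and lacked 276.

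Counts were tested with edgeR 4.0.16 in R 4.3.3 (quasi-likelihood F test, TMM factors, filterByExpr with minimum count 10 and total 15, the group as the only term), after the code was tested on simulated data, and p-values were adjusted over all 12987 tested genes by the Benjamini-Hochberg method. The SE was taken from F, as the size of the log2 fold change divided by the root of F. Alternatives were DESeq2 1.42.0, limma 3.58.1 voom, other scalings and filters, thinned counts, leaving out the 50 genes with most counts together with mitochondrial genes (mitochondrial ribosomal RNA took 29.26% to 35.33% of counts), each library left out, the library number as a block and, added after seeing the data, both libraries numbered 1 left out. Over the 2000 most variable genes, libraries with the same number deviated from their group means with correlations of 0.34, 0.19 and 0.16, each above the limit of 0.1, so the numbers were taken to pair the libraries (on the evidence of the data, not of a label), although CD25-high library 2 with CD25-low library 3 reached 0.13. Libraries of the same group differed by more than sampling noise, with chi-square values of 27.8 to 98.4 for each degree of freedom.

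Ratios were tested with the exact permutation test of scipy 1.17.1, after adding 0.5 to each count. Merged exon lengths come from GENCODE, and sequences before start sites from RefSeq. Named genes are the 7 members, Il2ra, from each list up to 3 called genes in each direction or, with none called, the 2 smallest p-values, and the 2 genes most like each member. Itgam, Lyz2 and further cell markers stand on fixed marker lists. Jak1, Tyk2, Usp18, Irgm1, Casp4, Iigp1, Oasl2, Ifi44 and the genes around the chromosome 16 cluster were chosen after their values were seen. The members and lists were chosen with earlier results of these data known.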

Additional observations from a re-analysis of the deposited data

How the results depend on the processing

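Over the 10 processing alternatives without a left-out library, replicate block included, the log2 fold changes of the 6 tested members kept their sign and their side of the threshold (Ifnar2 -1.52 to -1.47, adjusted p 1.09e-05 to 0.0284, and no call for Ifnar1, Ifngr1, Irf1, Irf2 or Irf3). In the 6 fits without 1 library, Ifnar2 ran from -1.75 to -1.37 and was called in 1. Irf3, not called in any fit, ran from -0.19 to 0.03 with a library left out, and changed sign without CD25-high replicate 1 (0.01) or CD25-low replicate 2 (0.03) and with the replicate block without pair 1 (0.01), and was 0.00 without both libraries numbered 1. Tyk2 ran from -0.37 to 0.08 with a library left out, and changed sign without CD25-high replicate 1 (0.04) or CD25-low replicate 3 (0.08) and with the replicate block without pair 2 (0.02). Ifngr2 was tested in some fits only, with log2 fold changes of -0.16 to 0.7 and no call. The number of members called was 0 to 1 with a library left out, and 1 under the other settings. Of all tested genes 85 were called, against 376 with DESeq2, 601 with the replicate block, 461, 486 and 536 with the replicate block without pair 1, 2 and 3, 380 without both libraries numbered 1 (chosen after seeing the data), and 22 to 130 with a library left out. On the pathway lists, without the members, 2 of 92 genes were called, against 1 with RLE size factors, 1 with no low-count filter, 9 with DESeq2, 31 with the replicate block, 24 in each fit with the block and without a pair, 18 without both libraries numbered 1, and 0 to 3 with a library left out. The replicate block changed no call of a member. The log2 difference in the ratio of Ifnar1 to Ifnar2 was 0.53 to 1.19 and that of Irf1 to Irf2 -0.58 to 0.03 with a library left out, and that of Ifngr1 to Ifngr2 0.60 to 2.64. The exact sign-flip test over pairs gave p = 0.25 for Ifnar1 to Ifnar2, 0.75 for Irf1 to Irf2 and 0.5 for Ifngr1 to Ifngr2. The cause of these changes was not tested. Ifngr2, with 0 to 25 counts per library, was both thinly and unevenly counted.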
